A study of Mus musculus with 6 samples.

Results

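The collagen genes of the mouse cornea are described here, 44 of the 35673 genes in the deposited count table. They are the rows whose symbol is Col, a number, the letter a and a number, with nothing else, so pseudogenes and collagen-like proteins with other names are left out. Every chain from type I to type XXVIII that carries such a symbol in the table was taken, and each was placed in a class by the assembly its protein forms. RNA sequencing gave 6 libraries, 3 titled Cationorm and 3 titled Control. The Cationorm libraries are from corneas of male C57BL/6J mice, aged 6 to 8 weeks, treated with Cationorm, a cationic nanoemulsion eye drop, at 5 µL per eye and 2 times daily for 14 days. Before that, per the labels' protocols, contact lens-related dry eye (CLDE) was made in the mice with 0.1% benzalkonium chloride, an irritant preservative (5 µL per eye, 2 times daily), and lens wear of 6 h per day. The Control libraries are from corneas of mice of the same strain, sex and age range. The design text names Control as a group apart from the CLDE mice, yet all 6 libraries carry the condition tag CLDE and the treatment tag wild-type, so what the Control mice received is uncertain. If they were outside the model, the groups differ in benzalkonium chloride, lens wear and Cationorm together, and these cannot be told apart. No label states whether a library is 1 animal or a pool. The p-values below therefore weigh group differences against the spread between these libraries, which need not be that between animals.

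Collagens are extracellular proteins in which 3 chains, alike or different, wind into a triple helix. Fibrillar collagens form the regularly spaced fibrils that make the corneal stroma strong and clear, and FACIT collagens (fibril-associated collagens with interrupted triple helices) sit on the surface of such fibrils. Type IV chains build the sheet of basement membranes, type VII the anchoring fibrils under the epithelium, type VIII the lattice of Descemet's membrane, and type XVII spans the membrane of basal epithelial cells at the hemidesmosome. Keratocytes make most of the stromal chains, the epithelium makes types VII and XVII, and the corneal endothelium makes type VIII.

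Library totals ran from 32486043 to 39193311 counts. Marker genes of corneal epithelium, led by Aldh3a1, Krt5 and Krt12, summed to 50278 to 54303 CPM in Cationorm and 48354 to 52448 CPM in Control, in counts scaled to library size with TMM normalisation (CPM). Markers of other cells and eye tissues were detected as well. Keratocyte markers (7 of 7 genes found) summed to 1308 to 2195 CPM in Cationorm and 1902 to 2019 CPM in Control, retina markers (8 of 8) to 1858 to 5914 CPM in Cationorm and 4788 to 7165 CPM in Control, and iris and ciliary pigment markers (8 of 8) to 1172 to 1483 CPM in Cationorm and 424 to 1054 CPM in Control. Lens markers (7 of 8) ran from 1644 to 5835 CPM in Cationorm and from 75.5 to 3013 CPM in Control. No gene of these lists was at 0 in all libraries. In bulk RNA such as this, fewer cells of a type and less RNA per cell cannot be told apart.

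Levels of different genes were compared per kilobase of exon, with exon lengths from GENCODE M21. Each length is the union of all annotated exons of a gene, which can exceed the transcript expressed, so ranks depend on it. Col17a1, the hemidesmosome chain, was far above the rest at 484 CPM per kb (mean of 6 libraries, range 429.8 to 534). It alone took 50.9, 57.4 and 52.4% of all collagen counts in Cationorm 1 to 3, against 54.2, 49.0 and 56.0% in Control 1 to 3. Col1a1, the major chain of stromal fibrils, was next at 72.1 CPM per kb, and its lowest library was above every library of the gene after it. Col8a2 of Descemet's membrane followed at 53.0 and Col1a2 at 39.6 CPM per kb, and the libraries of these neighbours overlapped. Col6a1, a chain of beaded filaments, stood apart from both sides on this scale at 23.4 CPM per kb. Before division by length, Col6a1, Col6a3 and Col6a2 were at 103, 97.0 and 84.6 CPM (means of 6 libraries). On that scale Col1a2, at 493 CPM, was above Col8a2, at 238 CPM. From Col12a1 at 11.6 to Col4a4 at 3.90 CPM per kb, 18 genes of every class with a known assembly lay in a run in which each overlapped its neighbour. After a gap the remaining 21 genes ran from Col9a1 at 2.55 down to Col6a5 at 0.0324 CPM per kb. All 44 genes passed the low-count filter, and Col6a4 was the only one with a count of 0, in Cationorm 1.

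**Figure D1:**
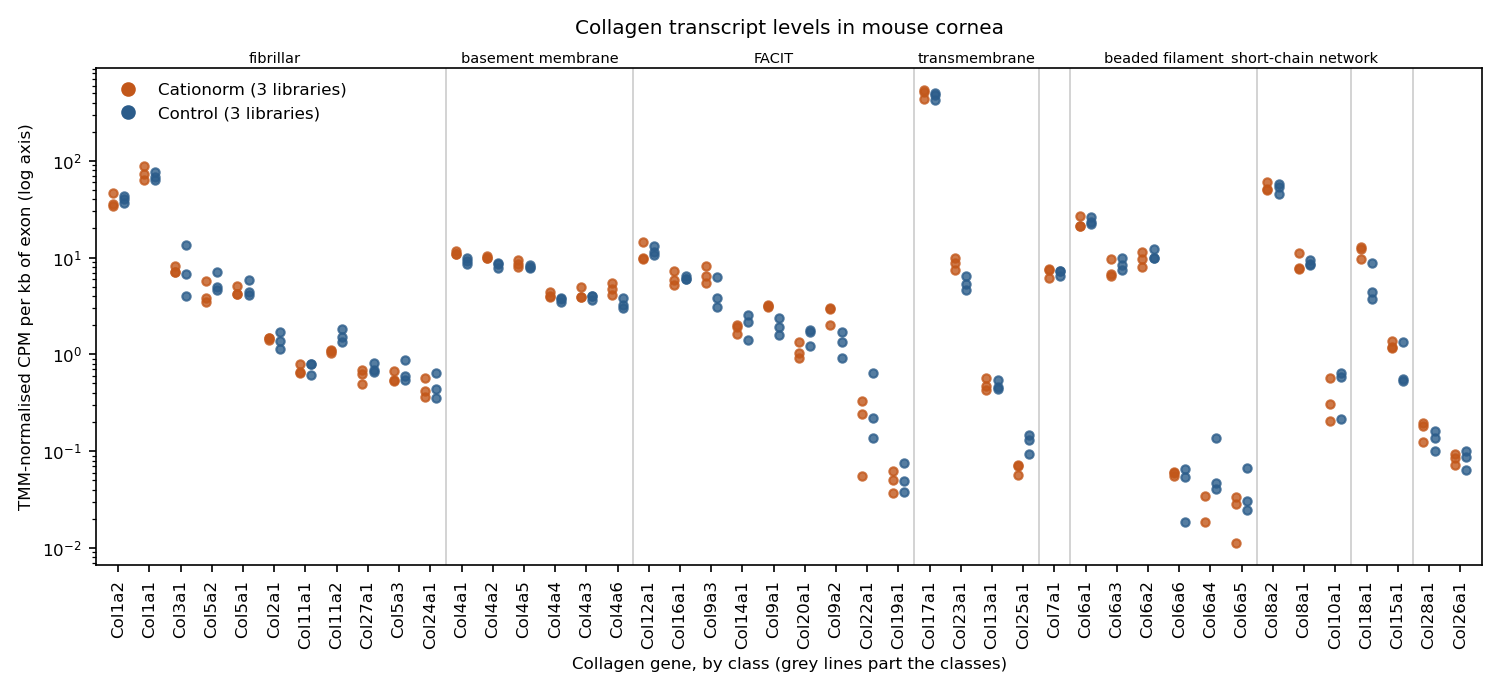
Level of each collagen gene in TMM-normalised CPM per kb of exon (log axis), with 1 point per library, Cationorm left of Control, and genes sorted by class and abundance; a count of 0 for Col6a4 in Cationorm 1 cannot be drawn on the log axis. Col17a1 averages 484 CPM per kb, with Col1a1 at 72.1 and Col8a2 at 53.0.

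The collagen genes as a family took a share of the counts that overlapped between groups, with 0.592, 0.546 and 0.513% in Cationorm 1 to 3, against 0.542, 0.526 and 0.547% in Control 1 to 3. The difference in means was 0.012 percentage points (two-sided exact permutation test over libraries, p = 0.8, where 3 against 3 cannot go below 0.1). The question put to single genes was whether their level differed between Cationorm and Control. In the quasi-likelihood test of edgeR, fitted to all 18804 genes that passed the low-count filter, 0 collagen genes and 0 genes in all (0%) passed at an adjusted p under 0.05. At an unadjusted p under 0.05, 7 collagen genes (15.9% of the 44) were higher in Cationorm, against 5.16% of all genes tested, and 4 (9.09%) were lower, against 3.57% of all genes. The libraries of the groups did not overlap for 8 collagen genes that were higher (18.2%), against 8.73% of all genes, and for 3 that were lower (6.82%), against 6.09%. DESeq2, run without that filter, called 3 collagen genes higher, Col23a1, Col9a1 and Col9a2, where it called 0.341% of the genes it adjusted over higher and 0.0419% lower. Run on the 18804 filtered genes, an alternative chosen after seeing the data, it called Col23a1 and Col9a1, where it called 0.381% of the genes it adjusted over in either direction. With limma-voom the count was 0, sample weights or not.

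By direction alone, 21 of 44 collagen genes had a log2 fold change (Cationorm over Control) above 0, or 47.7%, against 51.2% of all genes tested. The median over the family was -0.02, beside 0.00547 over all genes. By class, type IV chains had a median of 0.21 with 6 of 6 above 0, and multiplexins 0.84 with 2 of 2, while fibrillar chains had -0.09 with 2 of 11 above 0. FACIT chains had -0.05 with 3 of 9, transmembrane chains 0.05 with 3 of 4, type VI chains -0.15 with 1 of 6, and short-chain network genes 0.02 with 2 of 3.

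**Figure D2:**
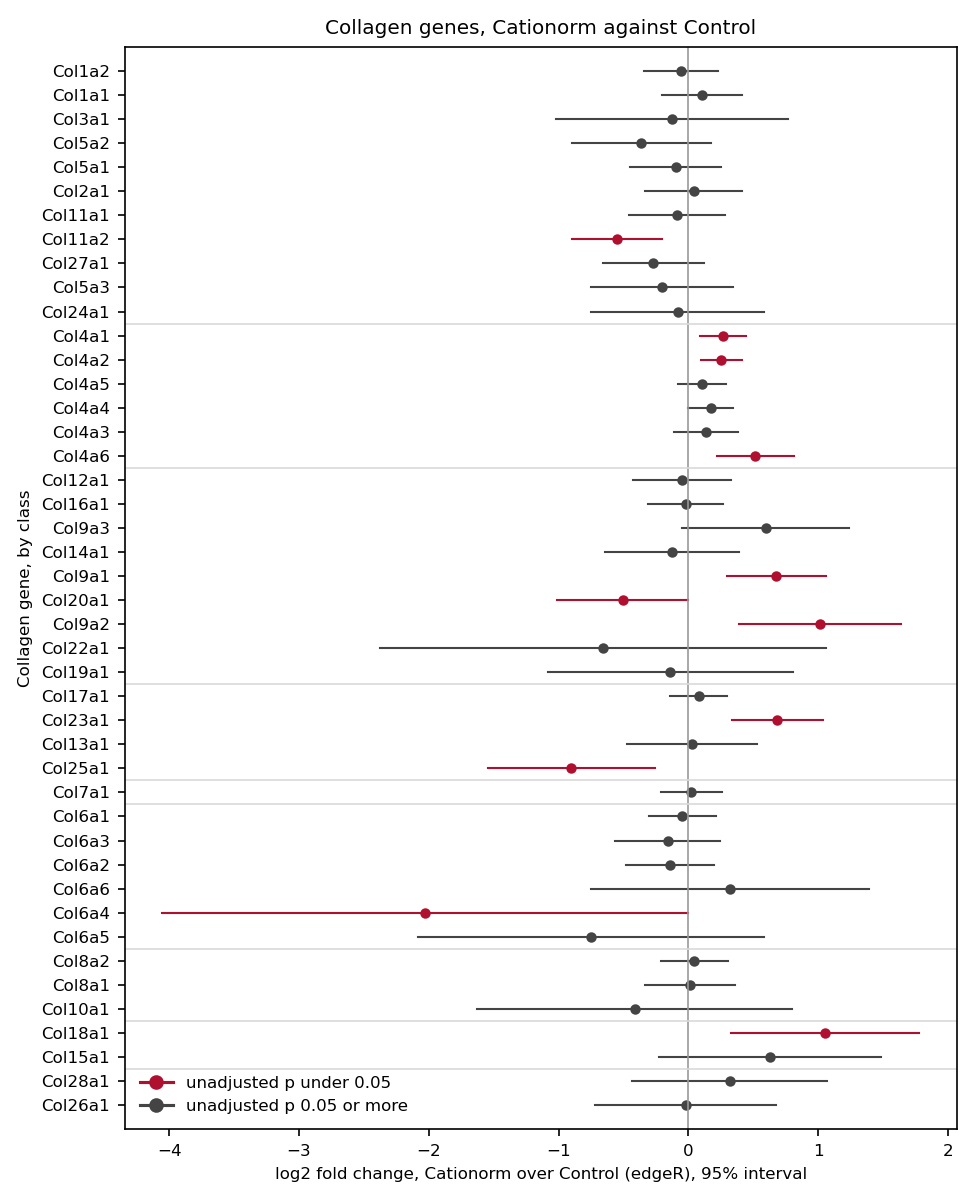
Log2 fold change of Cationorm over Control for each of the 44 collagen genes, sorted by class, with points for the edgeR estimate and lines for its 95% interval; red marks an unadjusted p under 0.05. The 7 red genes right of 0 are Col4a1, Col4a2, Col4a6, Col9a1, Col9a2, Col23a1 and Col18a1, and none has an adjusted p under 0.05.

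Among fibrillar collagens, the abundant stromal chains had levels that overlapped between groups. Col1a1 was at 579, 416 and 477 CPM in Cationorm 1 to 3, against 446, 506 and 415 CPM in Control 1 to 3. Col1a2, which joins Col1a1 chains in the type I molecule, was at 573, 427 and 448 CPM in Cationorm 1 to 3, against 502, 544 and 461 CPM in Control 1 to 3. For each, the highest library was Cationorm 1 and the groups overlapped, with log2 fold changes of 0.11 ± 0.13 (SE; 95% interval -0.20 to 0.42) for Col1a1 and -0.06 ± 0.12 (-0.35 to 0.23) for Col1a2. Col3a1, a chain of extensible tissues that is sparse in normal stroma, was at 69.1, 69.8 and 79.8 CPM in Cationorm 1 to 3, against 39.6, 132 and 67.1 CPM in Control 1 to 3. The Control libraries spanned a wider range than the Cationorm libraries on both sides, and the log2 fold change of -0.13 ± 0.38 had an interval of -1.02 to 0.77. Without Control 2, its highest library, the log2 fold change was 0.43 (edgeR adjusted p = 0.774), and without Control 1, its lowest, -0.45 (0.844), so the sign turned on single libraries.

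Col11a2, a chain of type XI collagen that forms thin fibrils in cartilage, was the fibrillar gene with the smallest p. It was at 7.08, 7.40 and 7.61 CPM in Cationorm 1 to 3, against 10.4, 9.26 and 12.6 CPM in Control 1 to 3. Every Cationorm library lay below every Control library, and the log2 fold change was -0.55 ± 0.15 (SE; edgeR unadjusted p = 0.00720, adjusted p = 0.550; DESeq2 adjusted p = 0.163). The cartilage markers Acan, Matn1 and Hapln1 were too low to be tested, with group means of 0.0177 to 0.306 CPM. The 3 tested, Cnmd, Comp and Matn3, had log2 fold changes of 0.07 ± 0.17, 0.20 ± 0.38 and 0.95 ± 0.69, and their groups overlapped. The 6 cartilage markers together summed to 18.4 to 30.5 CPM in Cationorm and 14.7 to 24.8 CPM in Control. The retina marker sums were 2369, 1858 and 5914 CPM in Cationorm 1 to 3, against 7165, 6217 and 4788 CPM in Control 1 to 3, and their part in the Col11a2 values was not tested. The other 7 fibrillar genes had unadjusted p from 0.147 (Col27a1) to 0.802 (Col2a1), and their groups overlapped. They included Col5a1 and Col5a2, which start stromal fibrils and limit their width, at log2 fold changes of -0.09 ± 0.15 and -0.36 ± 0.23.

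All 6 type IV genes, the network formers of basement membranes, had fold changes above 0, and 4 had libraries that did not overlap, where 51.2% of all genes tested were above 0 and 8.73% were higher without overlap. Col4a1, which pairs with Col4a2 in nearly all basement membranes, was at 82.1, 87.7 and 81.1 CPM in Cationorm 1 to 3, against 69.5, 74.7 and 64.4 CPM in Control 1 to 3. Its partner Col4a2 was at 68.4, 65.1 and 64.9 CPM in Cationorm 1 to 3, against 56.8, 57.8 and 51.6 CPM in Control 1 to 3. Each Cationorm library of both genes was above each Control library, by log2 fold changes of 0.27 ± 0.07 (SE; unadjusted p = 0.00886) for Col4a1 and 0.26 ± 0.07 (unadjusted p = 0.00655) for Col4a2, in edgeR with an adjusted p of 0.550 for each. Control 3 was the lowest library for both genes. For the other 5 collagen genes higher in Cationorm at that threshold, Control 3 was the highest Control library.

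Col4a3, Col4a4 and Col4a5 form a heterotrimer best known from the kidney filter and also found in cornea and other eye basement membranes. Col4a4 was at 47.1, 41.9 and 42.4 CPM in Cationorm 1 to 3, against 39.3, 37.1 and 40.2 CPM in Control 1 to 3. Its groups did not overlap and its log2 fold change was 0.17 ± 0.07 (unadjusted p = 0.0517 in edgeR). Col4a3 was at 49.1, 38.9 and 39.3 CPM in Cationorm 1 to 3, against 39.7, 39.8 and 36.2 CPM in Control 1 to 3, and Col4a5 at 63.2, 57.7 and 53.1 CPM in Cationorm 1 to 3, against 52.5, 53.5 and 55.8 CPM in Control 1 to 3. Groups overlapped for both, with log2 fold changes of 0.14 ± 0.11 for Col4a3 and 0.10 ± 0.08 for Col4a5. In the annotation of GRCm38, 5.65% of the exon bases of Col4a3 overlap a gene on the other strand, and the strand setting of the counting is not given in the sources used here. Col4a6 pairs with Col4a5 in epithelial basement membranes and had the largest fold change of the class. It was at 43.2, 38.2 and 33.1 CPM in Cationorm 1 to 3, against 25.8, 23.9 and 30.2 CPM in Control 1 to 3. The groups did not overlap, and the log2 fold change was 0.52 ± 0.13 (95% interval 0.22 to 0.82; edgeR unadjusted p = 0.00445, adjusted p = 0.550; DESeq2 adjusted p = 0.0651).

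Type IV genes lie head to head in pairs on their chromosomes, so partners start close together and are read in opposite directions. The windows of 2 such pairs are shown because Col4a1, Col4a2 and Col4a6 are the type IV genes with an unadjusted p under 0.05. Of the 44 genes, 35 matched by symbol in the RefSeq table of start-site windows (250 bases before to 50 after the start, build GRCm38.p6), an older build than the GRCm39 named in the submitters' processing notes. Capitals mark 3 motifs, searched on both strands. The GC box was searched as GGGCGG. The CCAAT box was searched as its own letters. The TATA box was searched as TATAAA. In the windows printed here no match overlaps another.
Col4a1, chr8:11312777-11313076, minus strand: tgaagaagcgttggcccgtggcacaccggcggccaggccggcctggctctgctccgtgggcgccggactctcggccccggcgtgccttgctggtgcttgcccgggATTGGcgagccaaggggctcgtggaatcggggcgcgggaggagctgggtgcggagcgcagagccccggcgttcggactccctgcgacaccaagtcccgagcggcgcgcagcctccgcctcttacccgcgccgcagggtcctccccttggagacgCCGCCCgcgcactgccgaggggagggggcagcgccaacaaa
Col4a2, chr8:11312555-11312854, plus strand: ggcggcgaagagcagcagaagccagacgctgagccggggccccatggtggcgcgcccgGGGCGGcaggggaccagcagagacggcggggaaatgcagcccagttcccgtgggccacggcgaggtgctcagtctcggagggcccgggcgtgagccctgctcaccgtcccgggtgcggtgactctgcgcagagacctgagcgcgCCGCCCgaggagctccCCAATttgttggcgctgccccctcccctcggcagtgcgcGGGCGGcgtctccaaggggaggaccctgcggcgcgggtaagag
Col4a5, chrX:141475169-141475468, plus strand: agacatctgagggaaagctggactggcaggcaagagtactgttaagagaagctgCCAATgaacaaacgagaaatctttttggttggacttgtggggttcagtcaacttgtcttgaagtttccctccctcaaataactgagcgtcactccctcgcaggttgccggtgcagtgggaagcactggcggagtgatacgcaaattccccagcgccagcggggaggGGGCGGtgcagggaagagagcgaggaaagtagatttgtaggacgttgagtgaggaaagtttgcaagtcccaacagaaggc
Col4a6, chrX:141474027-141474326, minus strand: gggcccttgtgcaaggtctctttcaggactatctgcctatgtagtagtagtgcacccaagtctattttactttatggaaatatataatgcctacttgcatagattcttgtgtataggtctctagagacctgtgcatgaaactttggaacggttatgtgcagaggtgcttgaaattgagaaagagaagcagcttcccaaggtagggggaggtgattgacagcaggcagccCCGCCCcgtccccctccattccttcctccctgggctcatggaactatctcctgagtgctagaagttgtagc
The annotated start of Col4a2 lies 21 bases inside Col4a1, which is transcribed the other way, and the windows of the pair share 78 bases. The Col4a1 window holds 1 GC box and 1 CCAAT box and is 74.0% G and C. The Col4a2 window holds 3 GC boxes and 1 CCAAT box and is 73.7% G and C. The starts of Col4a5 and Col4a6 are 1343 bases apart, and their windows do not overlap. The Col4a5 window holds 1 GC box and 1 CCAAT box, and the Col4a6 window 1 GC box and no CCAAT box. None of the 4 windows holds TATAAA. Among all 32851 windows of this length, 35.7% hold a GC box, 37.4% a CCAAT box and 13.6% a TATA box.

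Ratios of partner chains within a library, per kb of exon, put the pairs side by side. The ratio of Col4a1 to Col4a2 was 1.06, 1.19 and 1.11 in Cationorm 1 to 3, against 1.09, 1.15 and 1.11 in Control 1 to 3, and the groups overlapped. For Col4a6 to Col4a5 it was 0.576, 0.557 and 0.525 in Cationorm 1 to 3, against 0.414, 0.377 and 0.456 in Control 1 to 3. Here every Cationorm library was above every Control library (two-sided exact permutation p = 0.100, the smallest that 3 against 3 allows, and 0.550 after Benjamini-Hochberg adjustment over the 11 ratios computed). The only other ratio without overlap was Col1a1 to Col1a2. It was 1.91, 1.84 and 2.02 in Cationorm 1 to 3, against 1.68, 1.76 and 1.70 in Control 1 to 3 (exact permutation p = 0.100, adjusted 0.550). Its size depends on the exon lengths used, 6.563 kb for Col1a1 and 12.426 kb for Col1a2. Raw counts of Col1a1 were 18255, 15658 and 17938 in Cationorm 1 to 3, and 17826, 17529 and 14564 in Control 1 to 3. Those of Col1a2 were 18068, 16105 and 16845 in Cationorm 1 to 3, and 20076, 18845 and 16190 in Control 1 to 3. The lengths are the same for every library, so they do not change the order of the libraries. In the other 9 ratios the groups overlapped. They included Col4a3 to Col4a4, at 1.03 ± 0.0702 in Cationorm and 1.06 ± 0.0929 in Control, and Col8a2 to Col8a1, at 6.15 ± 0.626 and 5.95 ± 0.808 in the same order (SD, n = 3 each).

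**Figure D3:**
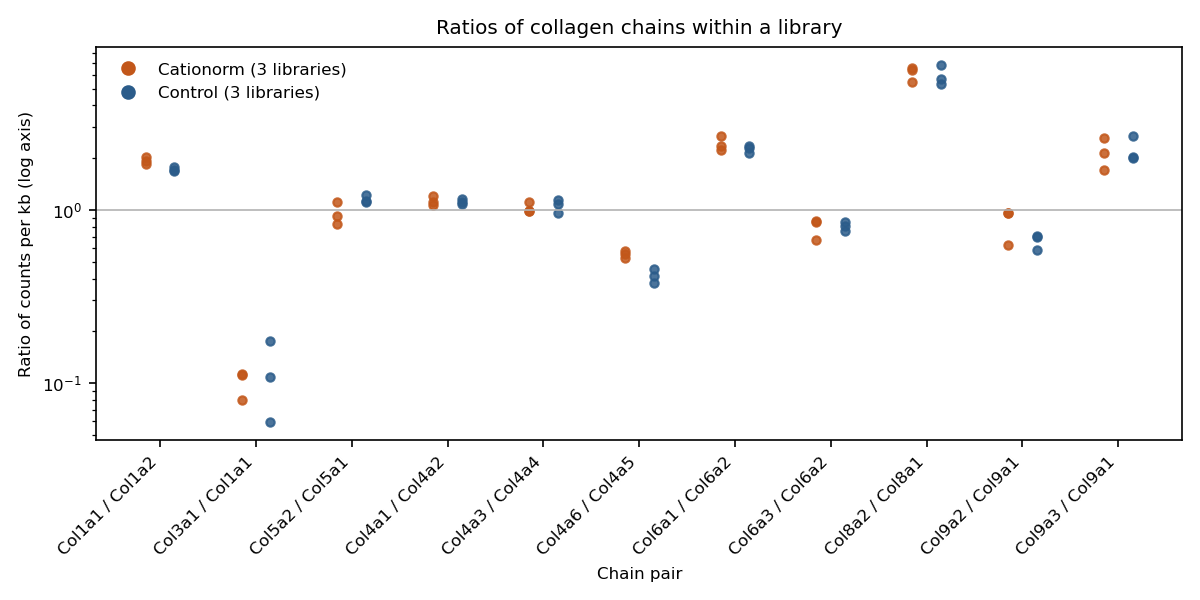
Ratio of counts per kb of exon between chains of collagen molecules (log axis), with 1 point per library and Cationorm left of Control; the grey line marks a ratio of 1. The Cationorm points lie above the Control points without overlap for Col1a1 / Col1a2 and Col4a6 / Col4a5.

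Among FACIT collagens, the 3 type IX genes had fold changes above 0 and the other 6 below 0. Type IX collagen coats thin fibrils of cartilage and of the vitreous body, and the ciliary epithelium is one of its sources in the eye. Col9a1 has 2 annotated starts, 17593 bases apart, that the counts per gene cannot separate. Col9a1 was at 15.8, 15.5 and 16.4 CPM in Cationorm 1 to 3, against 7.95, 9.67 and 12.2 CPM in Control 1 to 3. Its Cationorm libraries lay close together and above every Control library, with a log2 fold change of 0.68 ± 0.16 (95% interval 0.30 to 1.06; unadjusted p = 0.00379 in edgeR). Col9a2 was at 9.30, 9.08 and 6.28 CPM in Cationorm 1 to 3, against 2.83, 4.13 and 5.24 CPM in Control 1 to 3. Again the groups did not overlap, and the log2 fold change was 1.02 ± 0.27 (0.39 to 1.64; edgeR unadjusted p = 0.00627). Neither passed in edgeR (adjusted p = 0.550 for each), while DESeq2 called both (adjusted p = 0.0351 for each). On the filtered genes DESeq2 kept Col9a1 (adjusted p = 0.0465) and not Col9a2 (0.0647). Col9a3, the remaining type IX chain, was at 31.3, 25.0 and 21.1 CPM in Cationorm 1 to 3, against 12.0, 14.7 and 24.5 CPM in Control 1 to 3, where Control 3 lay between Cationorm 2 and Cationorm 3. Its log2 fold change was 0.60 ± 0.27 (edgeR unadjusted p = 0.0652), with 0.95 without Control 3 and 0.40 without Control 1. In the annotation, 6.07% of its exon bases overlap Tcfl5 on the other strand.

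Col12a1, which lies on type I fibrils, was the most abundant of the class, at 220.2, 148 and 152 CPM in Cationorm 1 to 3, against 199, 175 and 164 CPM in Control 1 to 3. Cationorm 1 was the highest library and Cationorm 2 and 3 the lowest, so the groups overlapped (log2 fold change -0.05 ± 0.16, 95% interval -0.43 to 0.33). Col16a1 was at 48.9, 39.2 and 35.1 CPM in Cationorm 1 to 3, against 43.9, 40.4 and 40.6 CPM in Control 1 to 3, with the same highest library and a log2 fold change of -0.02 ± 0.12. Col20a1, described in chick as a collagen of corneal epithelium, was at 4.70, 5.31 and 6.91 CPM in Cationorm 1 to 3, against 8.68, 6.23 and 9.11 CPM in Control 1 to 3, with Cationorm 3 above Control 2. It had a log2 fold change of -0.50 ± 0.21 (edgeR unadjusted p = 0.0498, adjusted p = 0.550). Col14a1, Col22a1 and Col19a1 had unadjusted p from 0.398 to 0.743. Col22a1, a collagen of muscle and tendon junctions, ranged from 0.508 CPM in Cationorm 1 to 5.90 CPM in Control 3. The skeletal muscle markers summed to 38.3 CPM in Cationorm 1, their lowest library, and to 684 CPM in Control 3, their second highest. They were highest in Cationorm 2 (1200 CPM), where Col22a1 was at 3.05 CPM. Their part in the Col22a1 values was not tested.

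Of the 4 transmembrane collagens, Col23a1 was higher and Col25a1 lower in Cationorm without overlap. Col17a1, the collagen of hemidesmosomes and a marker of the basal epithelium, was at 3105, 3209.8 and 2644 CPM in Cationorm 1 to 3, against 2882, 2584 and 3016 CPM in Control 1 to 3. Libraries of both groups were interleaved, and the log2 fold change was 0.08 ± 0.09 (95% interval -0.14 to 0.30). Col23a1, whose extracellular part is shed from the cell surface, was at 56.6, 50.8 and 42.6 CPM in Cationorm 1 to 3, against 26.3, 30.3 and 36.7 CPM in Control 1 to 3. All 3 Cationorm libraries were above all 3 Control libraries, and the log2 fold change of 0.69 ± 0.15 (95% interval 0.34 to 1.04) carried the smallest p of the family (edgeR unadjusted p = 0.00229, adjusted p = 0.550; DESeq2 adjusted p = 0.00573, and 0.00732 on the filtered genes).

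Col25a1, a collagen of neurons that takes part in muscle innervation, was at 0.730, 0.929 and 0.904 CPM in Cationorm 1 to 3, against 1.20, 1.70 and 1.91 CPM in Control 1 to 3. The counts behind it were few, from 23 to 67 per library, and the groups did not overlap (log2 fold change -0.90 ± 0.27, edgeR unadjusted p = 0.0125, adjusted p = 0.550; DESeq2 adjusted p = 0.397). Col13a1, a collagen of the neuromuscular junction and of focal contacts, was at 2.16, 2.60 and 1.97 CPM in Cationorm 1 to 3, against 2.0, 2.48 and 2.11 CPM in Control 1 to 3, and its groups overlapped.

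The multiplexins are collagens of the basement membrane zone whose ends are cut into fragments, among them endostatin from Col18a1. Mice without Col18a1 have defects of the iris and ciliary body. Col18a1 was at 90.5, 86.8 and 67.8 CPM in Cationorm 1 to 3, against 26.1, 31.0 and 61.1 CPM in Control 1 to 3. The Cationorm libraries were above all Control libraries, but Control 3 was much nearer to them than Control 1 and 2 were. The log2 fold change was 1.05 ± 0.31 (95% interval 0.33 to 1.78; edgeR unadjusted p = 0.0108, adjusted p = 0.550; DESeq2 adjusted p = 0.338). Without Control 3 it was 1.52 (edgeR adjusted p = 0.0601). Col15a1, the other multiplexin and outside the rule for named genes, was at 7.39, 7.62 and 8.72 CPM in Cationorm 1 to 3, against 3.50, 3.35 and 8.52 CPM in Control 1 to 3. It was chosen after its values were seen. Here Control 3 was above Cationorm 1 and Cationorm 2, and the log2 fold change of 0.63 ± 0.36 (edgeR unadjusted p = 0.126) was 1.21 without Control 3, 0.42 without Control 1 and 0.38 without Control 2.

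Col18a1 had the largest fold change above 0 of the family and Col23a1 the smallest p, so their start-site windows are shown from the same table. Col18a1 has 2 annotated starts, 52825 bases apart, that the counts per gene cannot separate.
Col18a1, chr10:77166481-77166780, minus strand: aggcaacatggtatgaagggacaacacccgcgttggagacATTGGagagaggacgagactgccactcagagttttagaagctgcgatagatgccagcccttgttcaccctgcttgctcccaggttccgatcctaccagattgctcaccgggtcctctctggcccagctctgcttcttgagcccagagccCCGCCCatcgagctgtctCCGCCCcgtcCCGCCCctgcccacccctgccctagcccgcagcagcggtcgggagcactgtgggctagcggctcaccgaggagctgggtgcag
Col18a1, chr10:77113656-77113955, minus strand: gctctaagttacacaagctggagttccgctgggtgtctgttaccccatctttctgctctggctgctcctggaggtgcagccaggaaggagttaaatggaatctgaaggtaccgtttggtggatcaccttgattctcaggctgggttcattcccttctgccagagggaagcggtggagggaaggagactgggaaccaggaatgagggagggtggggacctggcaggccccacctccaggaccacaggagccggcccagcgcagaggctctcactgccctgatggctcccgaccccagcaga
Col23a1, chr11:51289670-51289969, plus strand: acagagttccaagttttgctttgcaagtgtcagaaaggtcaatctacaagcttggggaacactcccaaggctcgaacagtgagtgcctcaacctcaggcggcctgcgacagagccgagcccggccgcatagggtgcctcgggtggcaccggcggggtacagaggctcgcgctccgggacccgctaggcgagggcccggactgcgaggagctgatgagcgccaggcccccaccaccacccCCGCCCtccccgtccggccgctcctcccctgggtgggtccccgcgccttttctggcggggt
The upstream Col18a1 window, the one with the higher coordinates on this minus-strand gene, holds 3 GC boxes and 1 CCAAT box. The downstream window holds none of the 3 motifs. The Col23a1 window holds 1 GC box and neither of the others.

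**Figure D4:**
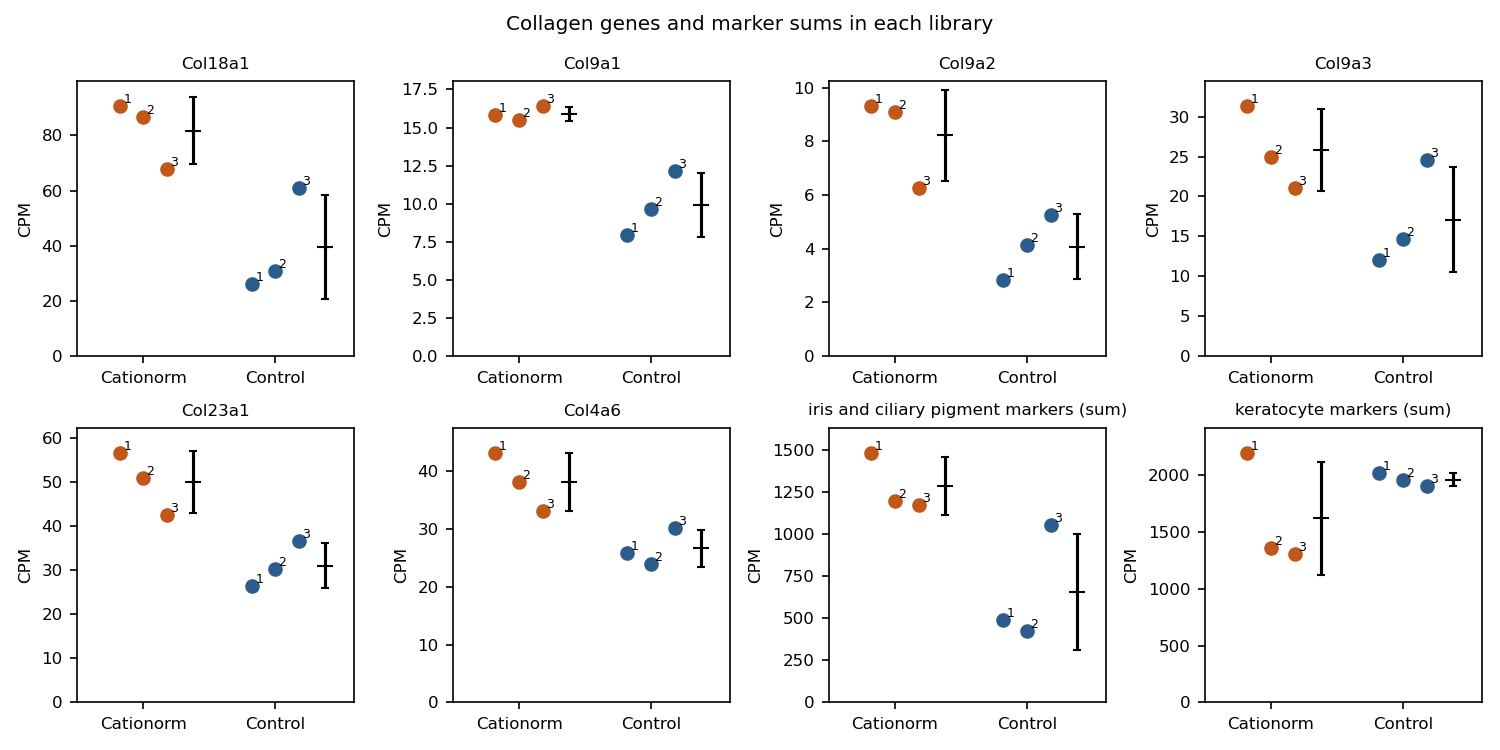
Level in each library, in CPM, of 6 collagen genes and of the summed iris and ciliary pigment markers and keratocyte markers, with the replicate number beside each point, Cationorm left of Control, and bars for mean ± SD (n = 3). For Col18a1, Col9a1, Col9a2, Col23a1, Col4a6 and the pigment markers the Cationorm points lie above the Control points and Control 3 is the highest Control point, while Col9a3 overlaps between groups.

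Markers listed for iris and ciliary pigment were also higher in Cationorm when summed. They are genes of pigment cells in general and do not place the signal in a given tissue. Their sum was 1483, 1199.5 and 1172 CPM in Cationorm 1 to 3, against 491, 424 and 1054 CPM in Control 1 to 3, with all 8 genes above 0 in log2 fold change and 7 of them higher at an unadjusted p under 0.05, beside 51.2% and 5.16% of all genes tested. The libraries stood in the same order for this sum and for Col4a6, namely Cationorm 1, 2 and 3, then Control 3, 1 and 2. For Col18a1, Col9a2 and Col23a1 the order differed only in that Control 2 was above Control 1. For Col9a1 it was Cationorm 3, 1 and 2, then Control 3, 2 and 1. For Col4a1 and Col4a2, Control 3 was the lowest library. These genes were named for a small p, so Cationorm above Control was given by that choice. Control 3 was the highest Control library in 5 of the 7 collagen genes higher in Cationorm at an unadjusted p under 0.05 (71.4%), in 19 of 44 collagen genes (43.2%) and in 35.9% of all genes tested. Smooth muscle and myofibroblast markers, which the iris also contains, summed to 328, 330.4 and 263 CPM in Cationorm 1 to 3, against 131, 104 and 227 CPM in Control 1 to 3. The groups did not overlap in that sum either, and 2 of the 6 genes were called higher by DESeq2, beside 0.341% of the genes it adjusted over. Vascular and lymphatic endothelium markers summed to 89.5 to 97.4 CPM in Cationorm and 60.7 to 97.6 CPM in Control. Of the 7 genes, 6 were above 0 and 2 were higher at an unadjusted p under 0.05. Schwann cell markers summed to 283, 283 and 256 CPM in Cationorm 1 to 3, against 234, 227 and 259.9 CPM in Control 1 to 3, with 6 of 6 genes above 0, a median log2 fold change of 0.45 and 2 higher at that threshold. Groups overlapped in both of these sums, and Control 3 was the highest Control library in each. The part of these cells in the collagen values was not tested.

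**Figure D5:**
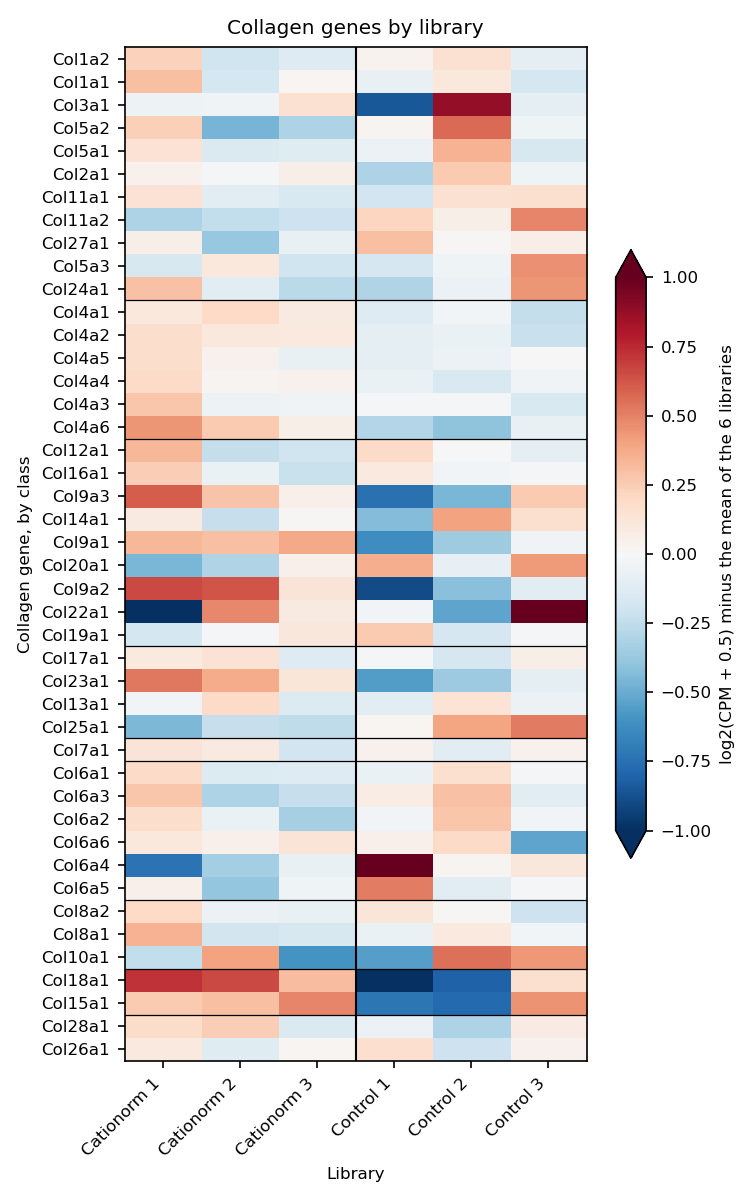
Each collagen gene in each library as log2(CPM + 0.5) minus the mean of the 6 libraries, sorted by class, with Cationorm left of the vertical line and Control right of it; colours beyond 1 on either side are drawn at the end of the scale. Col18a1, Col23a1, Col9a1 and Col9a2 are red in Cationorm and blue in Control 1 and 2. Col9a3 is red in Cationorm 1 and 2 and blue in Control 1 and 2, and its Control 3 is redder than its Cationorm 3. Col3a1 is lowest in Control 1 and highest in Control 2.

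Beaded filaments of type VI collagen link stromal fibrils to cells, and their main chains are Col6a1, Col6a2 and Col6a3. Col6a1 was at 117, 93.0 and 93.3 CPM in Cationorm 1 to 3, against 97.5, 114 and 101 CPM in Control 1 to 3. Col6a2 was at 94.6, 80.0 and 66.6 CPM in Cationorm 1 to 3, against 82.1, 102 and 82.4 CPM in Control 1 to 3. Col6a3 was at 116, 77.4 and 81.4 CPM in Cationorm 1 to 3, against 101, 117 and 89.1 CPM in Control 1 to 3. The groups overlapped for all 3, with log2 fold changes of -0.05 ± 0.11 for Col6a1, -0.14 ± 0.14 for Col6a2 and -0.16 ± 0.17 for Col6a3. Col6a4 was barely detected, at 0, 6 and 11 counts in Cationorm 1 to 3, against 47, 12 and 14 counts in Control 1 to 3. Its log2 fold change was -2.03 ± 0.86 (edgeR unadjusted p = 0.0497, adjusted p = 0.550), and it ran from -2.88 without Cationorm 3 to -1.24 without Control 1. Col6a5 and Col6a6 had at most 25 counts in a library, with groups that overlapped.

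Descemet's membrane and anchoring fibril genes overlapped between groups. Col8a2, the chain altered in a human corneal endothelial dystrophy, was at 272, 228 and 225 CPM in Cationorm 1 to 3, against 258, 239.5 and 205 CPM in Control 1 to 3. Col8a1, its partner, was at 87.5, 60.3 and 61.3 CPM in Cationorm 1 to 3, against 65.6, 73.5 and 67.6 CPM in Control 1 to 3. Their log2 fold changes were 0.05 ± 0.11 (95% interval -0.21 to 0.31) and 0.02 ± 0.15 (-0.33 to 0.36), in that order, and the groups overlapped. Corneal endothelium markers summed to 519 to 579 CPM in Cationorm and 446 to 561 CPM in Control. Col7a1, the anchoring fibril chain secreted by epithelium, was at 79.2, 77.1 and 63.5 CPM in Cationorm 1 to 3, against 74.6, 66.8 and 74.8 CPM in Control 1 to 3, again with overlap (log2 fold change 0.02 ± 0.10, -0.21 to 0.26). Col10a1, of hypertrophic cartilage, Col26a1 and Col28a1 were at most 2.02 CPM in any library, and their groups overlapped. Of these, Col28a1 was the most abundant unclassified chain, at 0.889, 0.955 and 0.612 CPM in Cationorm 1 to 3, against 0.675, 0.490 and 0.797 CPM in Control 1 to 3 (log2 fold change 0.32 ± 0.32, edgeR unadjusted p = 0.350).

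Genes that make collagen were given beside the chains. Of 33 genes of collagen synthesis, modification and crosslinking, 31 were tested, 24 had fold changes above 0 and 7 below, beside 51.2% of all genes above 0, and 0 passed in edgeR or DESeq2. The median log2 fold change was 0.04, beside 0.00547 over all genes. At an unadjusted p under 0.05 there were 7, all higher in Cationorm, where 5.16% of all genes tested were higher. The list summed to 1556, 1496 and 1422 CPM in Cationorm 1 to 3, against 1359.9, 1381 and 1404 CPM in Control 1 to 3. The libraries of this sum stood in the same order as those of Col18a1, Col9a2 and Col23a1, with Control 3 the highest Control library, as it was for the iris and ciliary pigment and the smooth muscle markers. The part of those cells in the list's values was not tested. The 7 genes were Fkbp10 and P3h1, which help collagen fold in the endoplasmic reticulum, P4hb, the shared subunit of prolyl 4-hydroxylase, Pcolce, which speeds the cutting of procollagen ends, and the crosslinking oxidases Loxl1, Loxl3 and Loxl4. Fkbp10 had the smallest p of these, at 18.9, 17.6 and 17.0 CPM in Cationorm 1 to 3, against 12.5, 14.2 and 14.0 CPM in Control 1 to 3 (log2 fold change 0.40 ± 0.10, edgeR unadjusted p = 0.00459, adjusted p = 0.550). Loxl1 was at 37.4, 30.7 and 33.7 CPM in Cationorm 1 to 3, against 23.4, 27.2 and 28.7 CPM in Control 1 to 3, without overlap (log2 fold change 0.36 ± 0.11, edgeR unadjusted p = 0.0127). P4hb was the most abundant gene of the list, at 568, 570.3 and 522 CPM in Cationorm 1 to 3, against 491, 495 and 503 CPM in Control 1 to 3 (log2 fold change 0.16 ± 0.06, edgeR unadjusted p = 0.0321).

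Of 10 collagen receptor genes, 9 were tested, 7 above 0 and 2 below, with a median of 0.15 and 0 passing in edgeR or DESeq2. Of these, 2 were higher at an unadjusted p under 0.05, beside 5.16% of all genes, and Control 3 was the highest Control library in the summed level of the list. The epithelial receptor Ddr1 was the most abundant, at 454 ± 26.8 CPM in Cationorm and 449 ± 27.3 CPM in Control (SD, n = 3 each). Ddr2, its counterpart on mesenchymal cells, was at 38.5, 30.0 and 25.9 CPM in Cationorm 1 to 3, against 20.3, 21.2 and 27.9 CPM in Control 1 to 3, and Control 3 lay above Cationorm 3 (log2 fold change 0.44 ± 0.18, edgeR unadjusted p = 0.0415). Mrc2, which takes up collagen fragments, had a log2 fold change of 0.32 ± 0.13 (edgeR unadjusted p = 0.0385).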

How the data were processed

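RNA from mouse cornea was measured in 6 libraries, which the labels' protocols describe as TRIzol extracts made into Illumina TruSeq libraries after mRNA enrichment. The authors deposited raw whole-number counts per gene symbol, and the columns, per the file headers, are 1 per library. DESeq2 and the builds GRCm39 and mm39 are listed in the submitters' processing notes, without saying what each was used for. For alignment, counting, annotation and strandedness the method is not given in the sources used here.

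Columns were matched to samples by library name, and groups were taken from the titles. filterByExpr kept 18804 of 35673 genes. Counts were TMM-normalised and tested over all kept genes in edgeR 4.0.16 (R 4.3.3) by quasi-likelihood, without covariates, with Benjamini-Hochberg adjustment at 0.05. A standard error is the log2 fold change divided by the square root of F. Levels are TMM-normalised CPM, and a count of 0 allows up to 0.0750 to 0.0952 CPM at 3 counts, for counting error only. Alternatives included DESeq2 1.42.0 and limma-voom (limma 3.58.1). The procedure was checked on simulated counts. Exon lengths and overlaps are from GENCODE M21 (GRCm38) and promoter windows from RefSeq (GRCm38.p6), matched by symbol.

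The collagen genes, classes and lists were chosen with earlier results of these data known. Values in every library are given for the 3 most abundant genes of each of 4 main classes and the most abundant of each other class, for genes with an unadjusted p under 0.05 or a DESeq2 call, and for some partner chains. Replicates differed by more than counting noise in every pair (lowest chi-square over its degrees of freedom, 30.5).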

Additional observations from a re-analysis of the deposited data

How the results depend on the processing

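With edgeR, 0 collagen genes passed under every scaling, filter, block and left-out library tried, and the same held with limma-voom. All genes called numbered 0 in these fits, except that leaving out 1 library gave 0 to 350 (350 without Cationorm 3, 8 without Control 3, 1 without Control 2). DESeq2 called 64 genes and 3 collagen genes, and 55 and 2 on the filtered genes. The 11 collagen genes at an unadjusted p under 0.05 kept their direction under all alternatives in which they were tested. The stricter filter (1 CPM in 3 libraries) kept 38 collagen genes and left out Col6a4, so it had no estimate there. Their smallest adjusted p in an edgeR fit was 0.0542, for Col23a1 without Cationorm 3. The log2 fold changes of Col18a1 ran over 0.829 to 1.52 with 1 library left out.

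Genes near 0 turned sign. With library totals only, Col13a1 was at -0.00328, Col7a1 at -0.0131 and Col8a1 at -0.0191. With limma-voom, Col3a1 was at 0.0563 and Col8a1 at -0.00821, and with sample weights Col3a1 was at 0.26. Leaving out 1 library gave ranges of -0.0291 to 0.197 for Col1a1, -0.198 to 0.00621 for Col1a2, -0.449 to 0.435 for Col3a1, -0.254 to 0.039 for Col12a1, -0.165 to 0.0801 for Col16a1, -0.00134 to 0.159 for Col17a1, -0.106 to 0.118 for Col13a1, -0.048 to 0.117 for Col7a1, -0.162 to 0.00808 for Col6a1, -0.0461 to 0.122 for Col8a2 and -0.179 to 0.101 for Col8a1. The family median ran over -0.098 to 0.0452, and the difference in collagen share over -0.00855 to 0.0307 percentage points. The cause was not tested for any of these.

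The labels give the groups the same replicate numbers, but same-numbered libraries did not deviate together (r over genes of -0.199, -0.343 and -0.209 for numbers 1 to 3), so the numbers were not taken as pairs. Across different numbers r ran from -0.188 to 0.42. It was 0.351 for Cationorm 1 with Control 2, 0.42 for Cationorm 2 with Control 3 and 0.258 for Cationorm 3 with Control 1. What lies behind these values was not tested. With the replicate block, 0 collagen genes were called, 21 were higher and 23 lower, the family median was -0.00205, Col3a1 was at 0.0482 and Col8a1 at -0.00356. With 3 libraries a group, collagen genes under about 1 CPM, such as Col6a4, rest on few counts.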

Other observations

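Cationorm 1 was the highest Cationorm library in 27 of 44 collagen genes (61.4%), against 37.1% of all genes tested. Col1a1, Col1a2, Col5a1, Col5a2, Col6a1, Col6a2, Col6a3, Col12a1, Col16a1, Col8a1 and Col8a2 were each highest there among Cationorm libraries, a group of genes chosen after their values were seen. The keratocyte markers summed to 2195, 1361 and 1308 CPM in Cationorm 1 to 3, against 2019, 1954 and 1902 CPM in Control 1 to 3, so Cationorm 1 was also highest for them and Cationorm 2 and 3 were below every Control library. Within that list Kera and Lum, proteoglycans that space stromal fibrils, had log2 fold changes of -0.83 ± 0.28 and -0.66 ± 0.27 (SE; edgeR adjusted p = 0.550 and 0.550). Dcn, the most abundant gene of the list, was at -0.28 ± 0.21 (edgeR adjusted p = 0.631). The list was mixed, with 5 of 7 genes below 0 and 2 above, Fmod at 0.22 ± 0.21 and Prelp at 0.23 ± 0.18. Omd was at -0.42 ± 0.30 and Ogn at -0.01 ± 0.17.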
